A study of Mus musculus with 6 samples.

Results

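The globin genes and Alas2, the erythroid enzyme of heme synthesis, were followed in the embryonic pancreas of mice that lacked the transcription factor Sox4. Members were the probes that carried exactly 1 gene symbol in the platform annotation and whose symbol was one of 9 listed genes. They numbered 62 of 21888 probes and covered 6 genes: Hba-a1 with 17 probes, Hba-a2 with 9, Hbb-b1 with 26, Hbb-bh1 with 6, Hbb-y with 3 and Alas2 with 1. Hba-x, Hbb-bs and Hbb-bt had no probe under those symbols in this annotation. All 62 had a value on at least 4 arrays and were tested.

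The RNA labelled knockout (KO) came from pancreas of Sox4-/- homozygous embryos and the RNA labelled wild type (WT) from pancreas of wild-type littermates, both at embryonic day 12.5. Both RNAs were hybridised to each of 6 arrays, WT in channel 1 and KO in channel 2, and each array gave 1 log2 ratio per probe. The label of arrays 1 and 2 says that pancreases were combined into 2 pools and that the extracted RNA went through linear amplification. The arrays may therefore be repeats of 1 pool of each genotype, and the p-values measure the spread between arrays and not between embryos. The ratio is read as KO over WT, a direction that is likely from the channel order and the sample titles and that no label or header states. Since each RNA kept its channel on every array, a probe's dye bias and its genotype ratio cannot be told apart.

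Hemoglobin carries oxygen in red blood cells as a tetramer of alpha-like and beta-like globin chains, each holding a heme group. In the mouse embryo, primitive red cells made in the yolk sac express the embryonic beta-like chains Hbb-y and Hbb-bh1, and definitive red cells made in the fetal liver express the adult beta chains, while Hba-a1 and Hba-a2 encode the alpha chain that serves both. Alas2 catalyses the first step of heme synthesis in erythroid cells. Red cells reach the pancreas through the circulation. Ratios give no levels, so neither the amount of blood in either RNA nor the tissue label could be checked from a level. In such bulk RNA, fewer cells of a type and less RNA per cell cannot be told apart.

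The sequences before the start sites of the members are shown to set side by side the promoter letters that the members share. They come from RefSeq on GRCm38.p6, which matched 7 of the 9 listed genes, and each line gives the 250 bases before the start of a gene with probes on the array, 5′ to 3′. Capitals mark matches to the TATA box core (TATAA), the CCAAT box (CCAAT), the CACCC box (CACCC) and the GATA core (GATAA), each searched on both strands.
Hba-a1, chr11:32283422-32283671, plus strand: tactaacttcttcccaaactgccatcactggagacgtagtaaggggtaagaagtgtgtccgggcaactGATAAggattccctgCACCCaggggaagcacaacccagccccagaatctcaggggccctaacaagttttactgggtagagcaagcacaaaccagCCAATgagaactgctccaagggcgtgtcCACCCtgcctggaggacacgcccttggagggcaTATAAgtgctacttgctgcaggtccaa
Hba-a2, chr11:32296242-32296491, plus strand: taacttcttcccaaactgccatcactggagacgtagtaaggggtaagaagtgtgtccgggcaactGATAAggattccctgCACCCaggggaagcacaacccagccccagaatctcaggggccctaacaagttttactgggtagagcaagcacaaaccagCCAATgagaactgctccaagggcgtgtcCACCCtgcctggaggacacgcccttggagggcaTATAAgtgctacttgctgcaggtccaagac
Hbb-y, chr7:103853208-103853457, minus strand: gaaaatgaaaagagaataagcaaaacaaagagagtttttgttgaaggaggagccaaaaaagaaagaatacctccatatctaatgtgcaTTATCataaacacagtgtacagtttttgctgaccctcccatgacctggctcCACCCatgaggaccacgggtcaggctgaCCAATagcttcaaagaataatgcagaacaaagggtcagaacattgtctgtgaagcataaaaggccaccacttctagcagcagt
Alas2, chrX:150547167-150547416, plus strand: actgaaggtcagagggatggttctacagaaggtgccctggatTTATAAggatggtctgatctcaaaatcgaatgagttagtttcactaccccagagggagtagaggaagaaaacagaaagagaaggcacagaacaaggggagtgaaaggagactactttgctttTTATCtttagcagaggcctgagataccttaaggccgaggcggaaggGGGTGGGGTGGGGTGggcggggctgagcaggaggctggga
Hba-a1 and Hba-a2 were identical at 247 of 247 compared bases when shifted by 3 positions. This upstream identity says nothing about the probes, whose sequences were not compared. As background, Hba-a1 and Hba-a2 encode near-identical transcripts, as do the adult beta genes, so values of probes named for either copy are uncertain as to the copy. Each alpha gene held all 4 motifs, with the TATA box core 27 bases before the start in Hba-a1 and 30 in Hba-a2. Hbb-y held the CCAAT box, the CACCC box and the GATA core but no match to the TATA box core in this window. Alas2 held the TATA box core, the GATA core and 3 CACCC boxes on the reverse strand but no match to the CCAAT box. Its TATA box core matches lay 207 bases before the start on the forward strand and 208 on the reverse strand. Among all 32851 promoter windows of this length, 22.8% held the TATA box core, 33.8% the CCAAT box, 52.0% the CACCC box and 22.6% the GATA core. These matches describe the letters and not binding.

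Most globin probes had ratios close to 0. Of the 62 member probes, 34 had a mean log2 ratio within 0.1 of 0, against 28.1% of all 21247 tested probes. Means above 0 were found for 32 of the 62 and for 53.7% of all tested probes. Without centring, 51 of the 62 had means above 0 and 11 under 0, so this even split depends on the centring. The share of all tested probes above 0 without centring was not counted. The SD of the member probes over arrays had a median of 0.20, against 0.29 for all tested probes. Only 1 member probe passed an adjusted p of 0.05 (limma, Benjamini-Hochberg over all probes), an Hba-a1 probe above 0, where 5.49% of all tested probes passed in either direction 1.96% passed above 0 and 3.53% under 0. That balance depends on the centring: 416 probes passed above 0 and 750 under 0 here, 849 and 409 without centring, and 1298 and 491 with quantile normalization. At an unadjusted p under 0.05 there were 8 member probes, 3 above 0 and 5 under 0, where 27.6% of all probes reached it, 13.6% above 0 and 14.0% under 0. The 95% interval of the mean lay within 0.5 on either side of 0, a 1.41-fold difference, for 48 of the 62 member probes and for 50.4% of all tested probes. The intervals of the other probes, which reached from -0.89 to 2.11, allow larger differences.

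**Figure D1:**
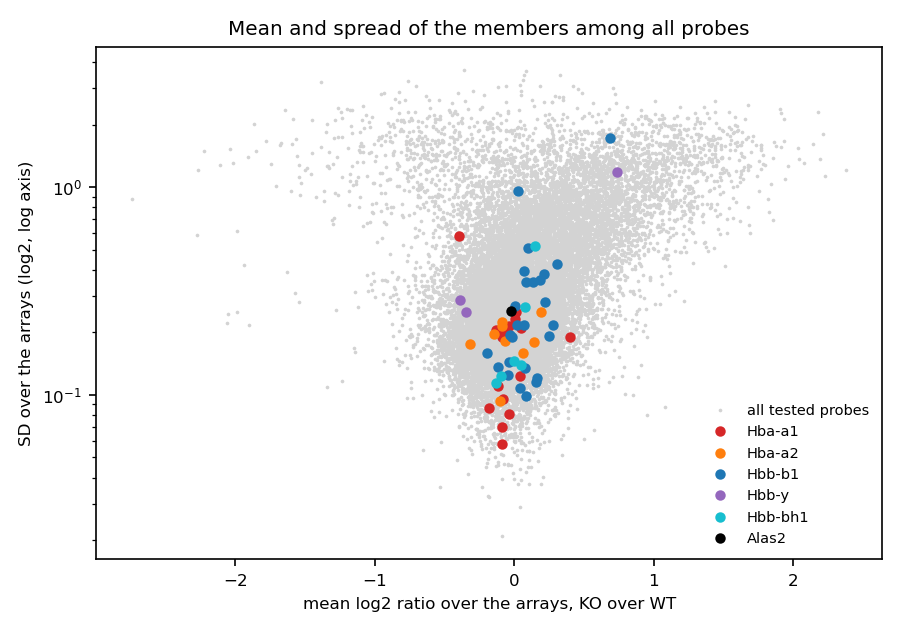
Mean log2 ratio (KO over WT) over the arrays on the horizontal axis against the SD over the arrays on the vertical log axis. Grey points are all 21247 tested probes and coloured points the 62 member probes. Members cluster near 0 with a median SD of 0.20, and the probe of Hbb-b1 at 0.69 and the probe of Hbb-y at 0.74 have the widest spread among them.

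The alpha chain genes lay slightly under 0. The median over the 17 Hba-a1 probes was -0.06, 0.23, -0.19, -0.004, -0.18 and -0.09 on arrays 1 to 6, a mean of -0.05 ± 0.15 (SD, n = 6 arrays). Array 2 was the only array above 0. The median over the 9 Hba-a2 probes was -0.08, -0.04, -0.15, 0.02, -0.23 and -0.12, a mean of -0.10 ± 0.08 (SD, n = 6), and here array 4 was the only array above 0. Without the centring of arrays on their own medians, these means were 0.05 for Hba-a1 and 0.0042 for Hba-a2, so their side of 0 depends on the centring. Of the 26 alpha probes, 18 had means under 0 with centring and 6 without it. With centring, 53.7% of all tested probes had means above 0.

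The probe past the threshold, ZX-00139F15 of Hba-a1, stood apart from the other probes of its gene. It was at 0.30, 0.62, 0.48, 0.11, 0.33 and 0.57 on arrays 1 to 6, above 0 on every array. Its mean was 0.40 ± 0.19 (SD, n = 6), 1.32-fold higher in the RNA labelled KO, with an adjusted p of 0.049. The other 16 Hba-a1 probes had means from -0.39 to 0.05, and none of these passed. The call was lost when any single array was left out, with limma adjusted p from 0.0644 to 0.131 and means from 0.36 to 0.46. Without array 1, 3, 4, 5 or 6, only 10 to 45 of all tested probes passed, against 1166 with all arrays. Without array 2, 1072 passed. The call was also lost with robust eBayes, at an adjusted p of 0.0511.

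At the other end, the Hba-a2 probe ZX-00139D23 was at -0.15, -0.15, -0.51, -0.19, -0.51 and -0.41. All arrays were under 0, arrays 1, 2 and 4 less so than the others. Its mean was -0.32 ± 0.17 (SD, n = 6), with an adjusted p of 0.0718. The Hba-a1 probe ZX-00135C08 had a mean of similar size, -0.39 ± 0.58, but ranged from -1.35 on array 6 to 0.38 on array 2, and its adjusted p was 0.265. The probe named Hba-a2 with the highest mean, ZA-00024C01, was at 0.04, 0.69, 0.19, 0.13, 0.07 and 0.04, above 0 on all arrays, with a mean of 0.19 ± 0.25 and an adjusted p of 0.276.

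Hbb-b1, the adult beta chain, was centred slightly above 0. The median over its 26 probes was 0.12, 0.37, -0.002, -0.02, -0.05 and -0.09 on arrays 1 to 6, so that arrays 1 and 2 lay above 0 and the other arrays at or under it. The mean of these medians was 0.06 ± 0.17 (SD, n = 6), 0.24 over arrays 1 and 2 alone, and -0.0063 without array 2, on the other side of 0. Of the 26 probes, 20 had means above 0, where 53.7% of all tested probes did. Without centring, 24 of the 26 had means above 0. The gene median was then 0.11, 0.44, 0.14, 0.05, 0.15 and 0.06 on arrays 1 to 6, above 0 on every array. Its side of 0 on arrays 3 to 6 therefore depends on the centring. With centring, the means of the 26 ran from -0.20 to 0.69, and none passed the threshold. The smallest adjusted p was 0.119, at ZX-00135F01, which was at 0.14, 0.56, 0.34, -0.02, 0.47 and 0.19. Its mean was 0.28 ± 0.22 (SD, n = 6), with array 4 the only array under 0.

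The largest mean of an Hbb-b1 probe rested on a single array. On array 2, ZX-00135B06 reached 4.18, while the remaining arrays held it between -0.15 and 0.15, which gave a mean of 0.69 ± 1.72 and an adjusted p of 0.486. The Hbb-b1 probe ZX-00119I08, without a value on array 3, ranged from -1.13 on array 2 to 1.55 on array 6, with a mean of 0.03 ± 0.96 (SD, n = 5).

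**Figure D2:**
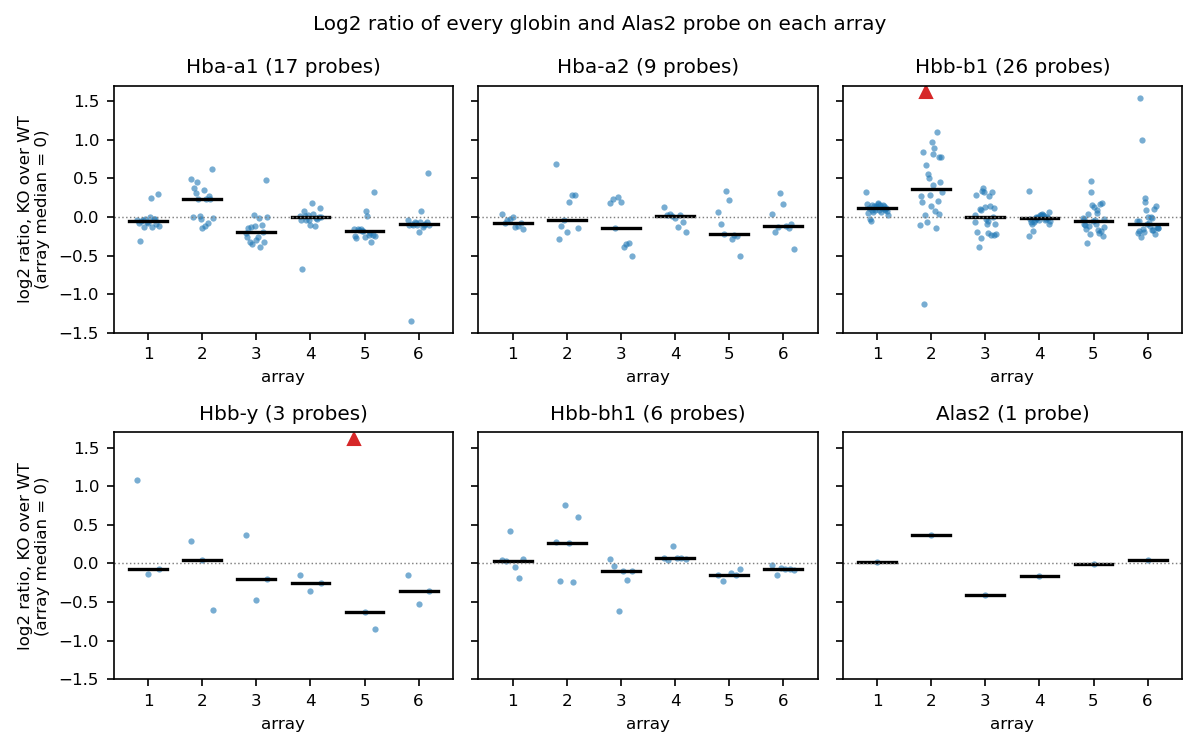
Log2 ratio (KO over WT, array median at 0) on the vertical axis for each array on the horizontal axis, with a panel per gene. Points are probes, black bars are medians over the probes, and red triangles mark values above the axis, 4.18 for an Hbb-b1 probe on array 2 and 2.97 for an Hbb-y probe on array 5. On array 2 the Hbb-b1 probes spread widely, while on arrays 1 and 4 most lie close together.

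The median of the adult beta probes was above that of the alpha probes on most arrays, and the difference varied with the source plate of the probes, which was not tested. The median of Hbb-b1 minus that of Hba-a1 and Hba-a2 together was 0.18, 0.16, 0.17, -0.01, 0.15 and 0.01 on arrays 1 to 6, a mean of 0.11 ± 0.09 (SD, n = 6). It was above 0 on 5 of 6 arrays and near 0 on arrays 4 and 6, and it does not depend on the centring. Among probes of plate ZX-00135, as read from the probe names, it was above 0 on 6 of 6 arrays, with a mean of 0.16 ± 0.12 (18 Hbb-b1 and 19 alpha probes). Among probes of other plates it was 0.11, 0.24, -0.07, -0.10, 0.07 and -0.004, above 0 on 3 of 6 arrays, with a mean of 0.04 ± 0.13 (8 Hbb-b1 and 7 alpha probes). On array 1 the groups were nearly apart, with 24 of 26 Hbb-b1 probes and 4 of 26 alpha probes above 0. The interquartile range there was 0.07 for Hbb-b1 and 0.08 for the alpha probes, against 0.43 for all probes of that array. The groups overlapped more on the other arrays. On arrays 2 to 6, 22, 12, 8, 9 and 8 Hbb-b1 probes were above 0, with 25 measured on array 3. Of the alpha probes, 16, 7, 12, 6 and 5 were, more than of Hbb-b1 on array 4. Since the members were chosen with results known, the difference of the medians was not tested.

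The embryonic beta chains had 6 probes for Hbb-bh1 and 3 for Hbb-y. Hbb-bh1 was near 0, with a median over its 6 probes of 0.03, 0.27, -0.10, 0.07, -0.15 and -0.07 on arrays 1 to 6 and a mean of 0.01 ± 0.15 (SD, n = 6). Arrays 1, 2 and 4 were above 0 and the others under it. This split depends on the centring. Without it, the median was above 0 on every array, from 0.03 to 0.35, with a mean of 0.11. With centring, the means of its probes ran from -0.13 to 0.15, with 3 on each side of 0. None passed the threshold (limma), the smallest adjusted p being 0.266.

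Hbb-y, the embryonic chain called epsilon y, was the member gene furthest under 0, at probes that disagreed. Probe ZX-00140C05 was at -0.14, 0.04, -0.47, -0.35, -0.63 and -0.53 on arrays 1 to 6, under 0 on 5 of 6 arrays, with a mean of -0.35 ± 0.25 and an adjusted p of 0.0967. Probe ZX-00141E12 was at -0.08, -0.60, -0.20, -0.25, -0.85 and -0.35, under 0 on every array, with a mean of -0.39 ± 0.29, 1.31-fold lower in the RNA labelled KO, and an adjusted p of 0.0931. Their 95% intervals, -0.59 to -0.10 and -0.66 to -0.11, left out 0.

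The third Hbb-y probe, ZX-00137E10, went the other way. It was at 1.09, 0.29, 0.38, -0.15, 2.97 and -0.15, highest on arrays 1 and 5 and under 0 on arrays 4 and 6. Its mean was 0.74 ± 1.19, with an adjusted p of 0.292, and 66.7% of its ratios were quotients of whole numbers up to 20. More than 50% of the ratios were such quotients at 2 of the 62 member probes and at 12% of all tested probes. With all 3 probes, the median of Hbb-y was -0.24 ± 0.23 over the arrays, and the mean over probes was 0.00097. Over arrays 3 to 6 alone, ZX-00140C05 passed the threshold at a mean of -0.49, with a limma adjusted p of 0.0482, the only member probe that did so in that fit.

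The Hbb-y median was under that of Hbb-bh1 on 6 of 6 arrays, by -0.48 to -0.10, a mean difference of -0.25 ± 0.14 (SD, n = 6). This rests on the median of 3 Hbb-y probes that disagreed: as means over probes the genes were at 0.00097 for Hbb-y and -0.00079 for Hbb-bh1, and the difference was not tested. The median of Hbb-bh1 minus that of Hbb-b1 was -0.05 ± 0.08, above 0 on 2 of 6 arrays. Ordered by their medians, the globin genes ran from Hbb-y at -0.24 over Hba-a2 at -0.10, Hba-a1 at -0.05 and Hbb-bh1 at 0.01 to Hbb-b1 at 0.06, and each neighbouring pair differed by less than the larger of its SDs over arrays. Hbb-y and Hba-a2 differed by more than the SD of Hba-a2, 0.08, and by less than that of Hbb-y, 0.23.

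**Figure D3:**
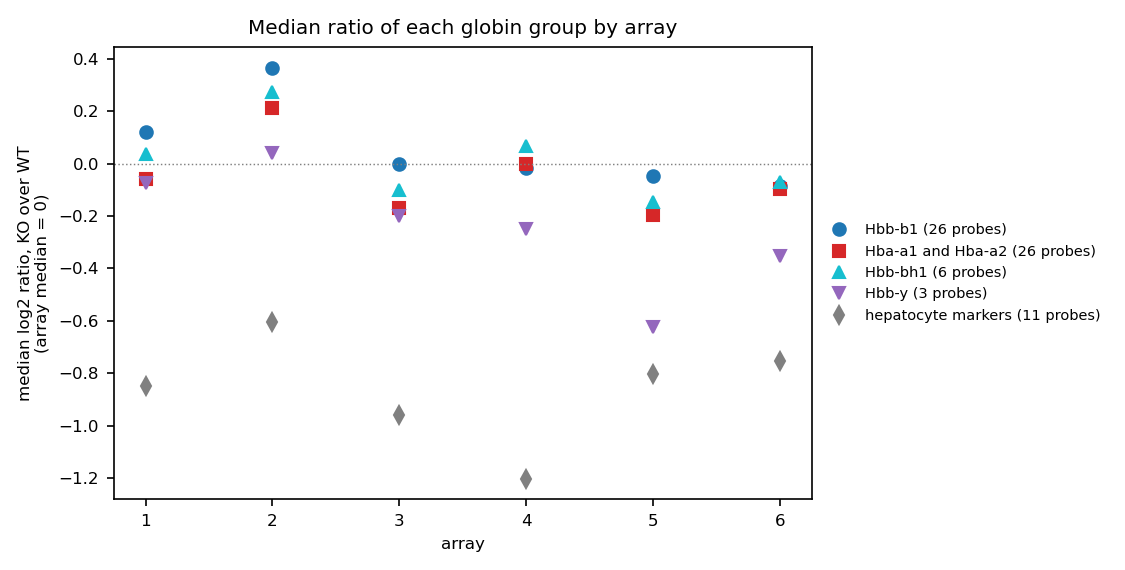
Median log2 ratio (KO over WT, array median at 0) on the vertical axis for each array on the horizontal axis. Coloured symbols are globin groups and grey diamonds are 11 probes of hepatocyte markers. The globin groups lie between -0.63 and 0.37, and on each array every group is above the hepatocyte markers, which lie between -1.20 and -0.60.

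Alas2 did not pass the threshold. Its probe ZA-00025G10 was at 0.02, 0.37, -0.40, -0.17, -0.001 and 0.05 on arrays 1 to 6, highest on array 2 and lowest on array 3. The mean was -0.02 ± 0.25 (SD, n = 6), with an adjusted p of 0.906 and a 95% interval of -0.27 to 0.23, which held values on both sides of 0.

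**Figure D4:**
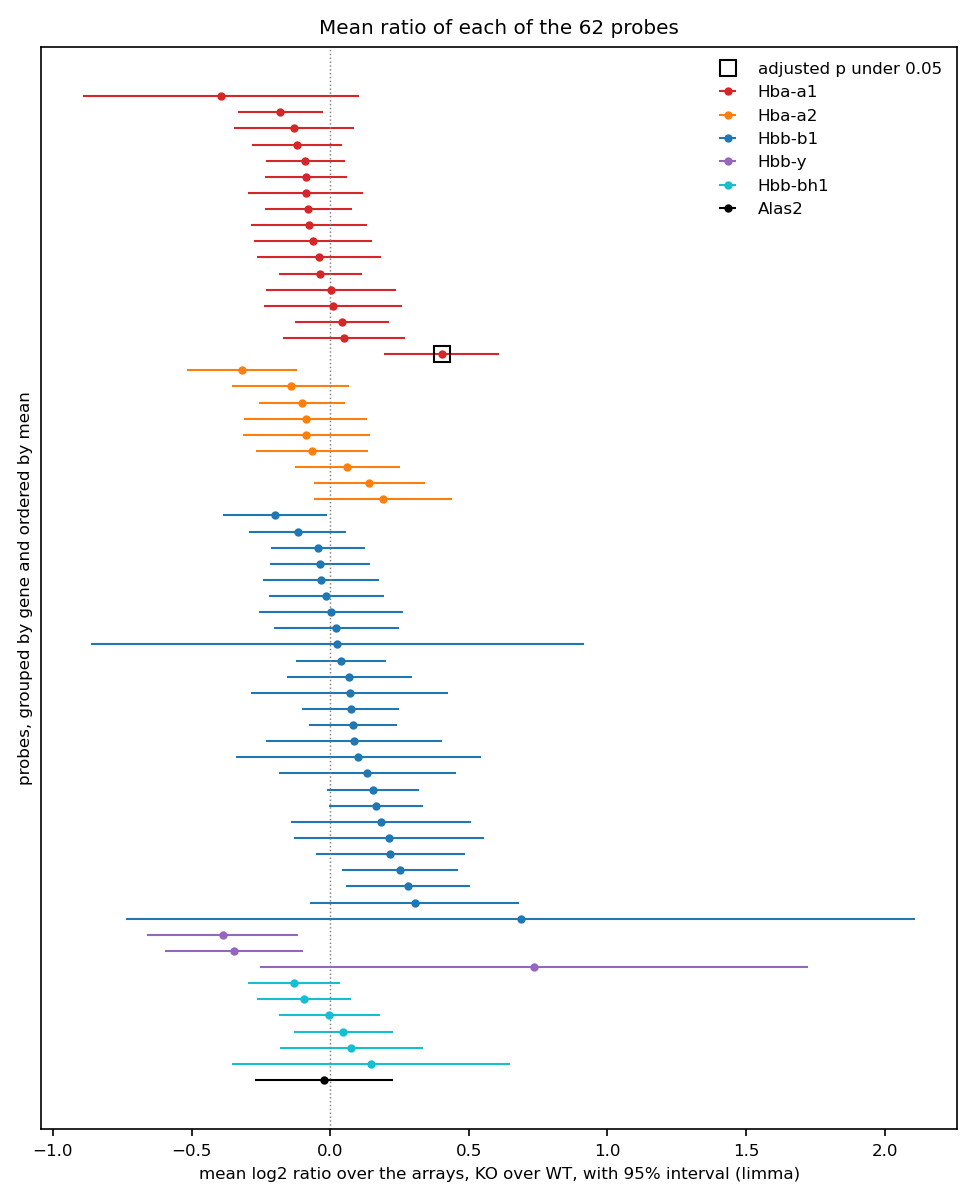
Mean log2 ratio (KO over WT) of each of the 62 member probes on the horizontal axis with its 95% interval from limma, grouped by gene down the page. The square marks the probe with an adjusted p under 0.05, the Hba-a1 probe at 0.40. The intervals of 48 probes lie within 0.5 of 0.

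Array 2 gave the highest value for many member probes. It was the highest array for 38 of 62 member probes and for 27.7% of all tested probes. The median over all members was 0.03, 0.27, -0.10, -0.01, -0.15 and -0.09 on arrays 1 to 6. Without centring it was 0.02, 0.34, 0.04, 0.06, 0.05 and 0.05. Array 2 was also the array with the widest spread over all probes, its median absolute deviation being 0.545 and that of the others 0.27 to 0.442. Per the probe names, 37 member probes came from source plate ZX-00135. On array 2 their median was 0.28, that of the 340 other probes of this plate 0.04 and that of members on other plates 0.26. The alpha probes were on array 2 at 0.23 on this plate and at -0.01 on other plates (7 probes). The Hbb-b1 probes were on array 2 at 0.48 on this plate and at 0.23 on other plates (8 probes). Without array 2 the medians were -0.11 for Hba-a1, -0.11 for Hba-a2, -0.04 for Hbb-bh1 and -0.30 for Hbb-y.

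Arrays 1 and 2, whose label is longer than that of arrays 3 to 6, were compared with them in a fit with this set as a term. Of the 62 member probes, 54 were lower on arrays 3 to 6 than on arrays 1 and 2. The share of all tested probes lower there was not counted, and array 2 was the highest array for 38 of the members. None of the 62 passed the adjusted threshold and 5 were at an unadjusted p under 0.05, where 0% and 15.4% of 21230 probes did. No label or header says whether these sets are batches.

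Other genes of red cells passed about as often as genes in general. Of 35 measured genes in the 6 lists of globin relatives, heme synthesis, heme breakdown and iron, erythroid regulators, red cell membrane and red cell cytosol, 3 had a probe past the threshold, where 8.21% of all 10818 genes did, 3.25% above 0 and 5.00% under 0. The median of the gene means was 0.01 for 4 heme synthesis genes, 0.47 for 6 genes of heme breakdown and iron, -0.01 for 5 regulators, 0.01 for 7 membrane genes and 0.07 for 12 cytosol genes, beside 0.05 over all genes. No gene passed in the list of other globins, where Cygb, a globin of fibroblasts, was at 0.79 ± 0.96, nor in heme synthesis, heme breakdown and iron, or the red cell membrane. All 3 genes lost their calls in the limma fit without array 1, 3, 4, 5 or 6, in each of which 0 erythroid list genes passed. Of all probes, 10 to 45 passed in these fits, against 1166 with all arrays, and 4678 to 5074 were at an unadjusted p under 0.05. In the fits with an array left out, the called probes had means of 0.36 to 0.71 for Prdx2, 0.76 to 0.90 for Bcl11a and -0.92 to -0.75 for Isg20, and their adjusted p ran from 0.0329 to 0.103.

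Among these 3 genes, Prdx2, a peroxidase abundant in red cells, had 2 of 6 probes past the threshold. The probe ZX-00118B03 was at 0.97, 1.03, 0.49, 0.47, 0.46 and 0.61 on arrays 1 to 6, above 0 on every array, with a mean of 0.67 ± 0.26 and an adjusted p of 0.0305. The probe ZX-00134M18 had a mean of 0.41 ± 0.15 and an adjusted p of 0.039, and the remaining Prdx2 probes had means from 0.24 to 0.47. Bcl11a, a repressor of embryonic globin genes, had probes on both sides. Its probe ZA-00030A14 was at 0.84 ± 0.20 (n = 5), with an adjusted p of 0.0259, and its probe ZX-00141I12 was at -0.48 ± 0.40. Isg20, an exonuclease, had a probe at -0.86 ± 0.32, with an adjusted p of 0.0294, and its other probes were at -0.55, -0.33 and 0.22. Prdx2, Isg20 and Bcl11a are also expressed outside red cells.

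Genes of the red cell that did not pass included several named here after their values were seen. Slc4a1, the band 3 anion exchanger of the red cell membrane, was at -0.10, -0.02, -0.01, 0.17, -0.05 and 0.05 on arrays 1 to 6, with a mean of 0.01 ± 0.09. Epor, the erythropoietin receptor, had a mean of 0.16 ± 0.23, Car1, a carbonic anhydrase, 0.20 ± 0.31, and Hemgn, an erythroid nuclear protein, -0.06 ± 0.20 and 0.06 ± 1.27. The Hemgn probe with the wider spread had values on 4 arrays. Urod, an enzyme of heme synthesis, had the smallest p of that list at -0.41 ± 0.29, with an adjusted p of 0.0848, and its other probe was at 0.11. Ftl1, the ferritin light chain that stores iron, had means above 0 at all 7 probes, with a smallest adjusted p of 0.0548. Its highest mean, 1.67 ± 0.80 at ZA-00025C01, rested on values on 4 arrays, and 100% of these ratios were quotients of small whole numbers. The remaining Ftl1 probes had means from 0.16 to 0.46. ZA-00025C01 was also part of the Ftl1 gene mean in the list of heme breakdown and iron, whose median was 0.47. In the membrane list the smallest adjusted p, 0.243, belonged to a probe of Cd47, at 0.25 ± 0.32, and its other probe was at -0.13.

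Markers of other cell types were read from the same fit. Hepatocyte markers moved most: 4 of 6 measured genes fell, and all 6 had gene means under 0, with a median of -0.90. Afp, the alpha-fetoprotein, had 3 of 4 probes past the threshold, the lowest at -2.06 ± 0.22 with an adjusted p of 0.00141, Ambp had a mean of -0.77 ± 0.10 with an adjusted p of 0.0126, and Fgb, a fibrinogen chain, one of -1.12 ± 0.26 with an adjusted p of 0.0127. The median over the hepatocyte probes ran from -1.20 to -0.60 over the arrays, under the median of all members on each array. The 3 Afp probes passed with any array left out, with limma adjusted p up to 0.0161. Ambp and Fgg passed in 2 of 6 such fits and Fgb in 1 of 6, with adjusted p up to 0.0866. Without array 1, 3, 4, 5 or 6, only 10 to 45 of all tested probes passed. Fetal liver is the site of definitive red cell formation at this age, and whether liver tissue had a part in any globin value was not tested.

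Among 5 measured leukocyte genes, Cd53 rose, at 0.71 ± 0.12 (n = 5, adjusted p 0.0251, 80% of its ratios quotients), and C1qa fell, at -0.40 ± 0.18 (adjusted p 0.0464). Of 3 endothelium genes none passed, with Eng at -0.09 ± 0.21 having the smallest p. The list of megakaryocytes and platelets had Ppbp alone, at 0.02 ± 0.36. Of 5 mesenchyme genes none passed, the smallest p being that of a Lum probe at 1.01 ± 0.96. Of 6 pancreas epithelium genes, Cpa1, a carboxypeptidase, fell at all 3 probes, at -0.50, -0.48 and -0.41, the smallest adjusted p being 0.0315, and the others did not pass. With array 1, 3, 4, 5 or 6 left out, Cd53, C1qa and Cpa1 no longer passed, with a highest limma adjusted p of 0.0913, 0.112 and 0.117. In these fits only 10 to 45 of all tested probes passed. C1qa did not pass without array 2 either.

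**Figure D5:**
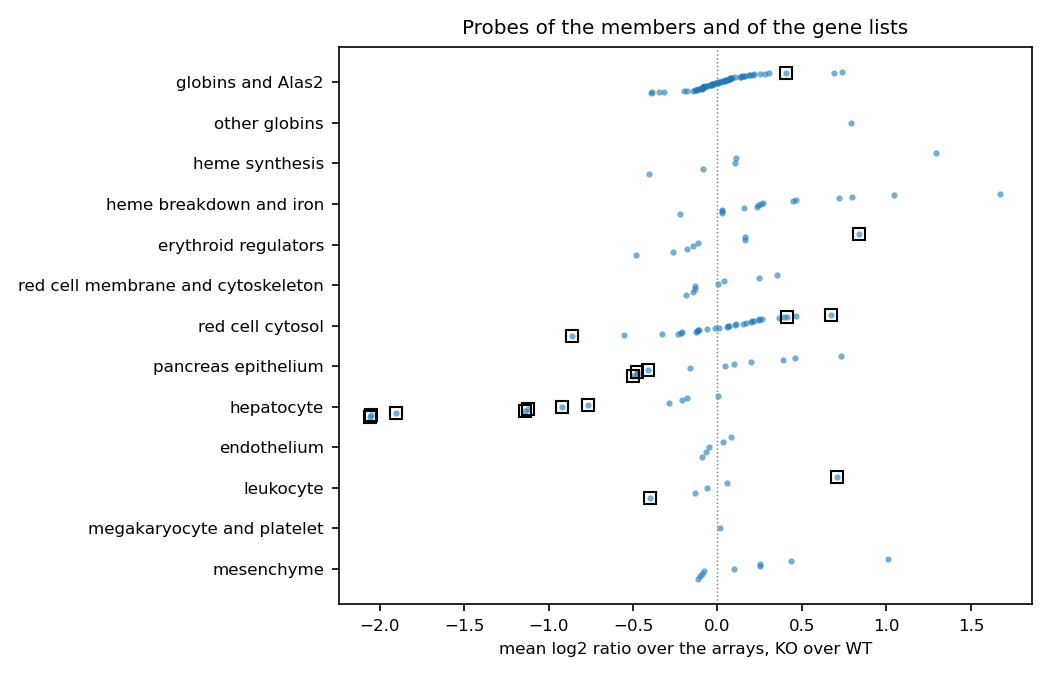
Mean log2 ratio (KO over WT) of each probe on the horizontal axis, for the globins and Alas2 in the top line and for each gene list under it. Squares mark probes with an adjusted p under 0.05. The member probes lie between -0.39 and 0.74 with 1 square, and 7 hepatocyte probes with squares lie between -2.06 and -0.77.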

How the data were processed

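The authors' deposited table holds 1 log2 ratio of the 2 channels per probe and array, 21888 probes on 6 arrays. No label or header names the scanner, the background correction, the normalization or the dyes. The base of the log2 ratios was read from their ceiling, which equals log2 of 1e+05. Values at that ceiling, 40 to 257 on an array, were treated as missing, and another 439 to 1654 had no value. Array medians ran from -0.007 to 0.198 and were subtracted. Intensities were not used here, so signal over background is unknown, and precision rests on having only 6 arrays.

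The mean of each probe measured on 4 or more arrays was compared with 0 (two-sided) by limma 3.58.1, run in R 4.3.3 with lmFit and eBayes. The Benjamini-Hochberg adjustment covered the 21247 probes tested. Probes with 1 symbol numbered 18388, with several 66 and with none 3434. For 17786 probes the symbol was taken from RefSeq by Entrez ID, whether or not it differed, and the member probes stayed the same. Named genes were every member, up to 3 genes per list past the threshold, or the gene with the smallest p, and the 5 genes most like the alpha globins. Members and lists were chosen with earlier results of these data known. Slc4a1, Epor, Car1, Hemgn and Ftl1 beyond its list's smallest p were named after their values were seen. Alternatives were other centring and scaling, other filters, the ceiling kept as a value, robust eBayes, each array left out, and each array set alone or as a term. Figures were drawn with matplotlib 3.10.9.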

Additional observations from a re-analysis of the deposited data

Results flagged for a closer look

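Each member probe, and the median over the probes of each globin gene, was checked for 1 array separated from its nearest neighbour by most of the range. By chance this happens in about 1 in 20 cases. Of 62 probes, 13 had such an array, and in 12 of these it was array 2, above the others. The share over all tested probes was not counted, and array 2 had the widest spread over all probes. Probes of the same gene are also not independent cases. None of the 5 gene medians had such an array.

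Among the alpha genes, the Hba-a1 probe ZA-00026L05 reached 0.50 on array 2 and lay between -0.21 and 0.01 elsewhere. The Hba-a1 probe ZX-00135C16 was at 0.46, against -0.17 to 0.007, and the Hba-a2 probe ZA-00024C01 at 0.69, against 0.04 to 0.19.

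Among the Hbb-b1 probes, array 2 stood at 4.18 for ZX-00135B06, 1.10 for ZX-00135M24, 0.98 for ZX-00135H13, 0.90 for ZX-00135L13, 0.85 for ZA-00027L15, 0.82 for ZX-00135L03, 0.78 for ZX-00135P01 and 0.77 for ZX-00135O14, while the other arrays of these probes lay between -0.24 and 0.18. The Hbb-b1 probe ZX-00135M16 was at 0.27 on array 3, against -0.008 to 0.08. The Hbb-bh1 probe ZX-00140L15 was at 0.60 on array 2, against -0.10 to 0.06.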

How the results depend on the processing

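The count of 1 member probe past the threshold (limma) was 3 with quantile normalization, 2 with scaling, and 0 with probes on at least 2 arrays, the ceiling kept, robust eBayes, only arrays 1 and 2, a term for the array set or any single array left out (0 to 0), while 4 to 11 member probes were at an unadjusted p under 0.05 in the fits without an array, against 8 with all arrays. It was 1 with the other alternatives, though over arrays 3 to 6 alone it was an Hbb-y probe. All probes past the threshold numbered 1166, 1789 with quantile normalization, 1786 with scaling, 599 over arrays 3 to 6, 0 over arrays 1 and 2 (2953 at an unadjusted p under 0.05), and 694 with the set as a term. Past the threshold were 10 to 45 probes without array 1, 3, 4, 5 or 6, and 1072 without array 2. The erythroid lists had 3 genes past it, 5 with quantile normalization, 6 with scaling, 2 over arrays 3 to 6, 0 over arrays 1 and 2 and 0 to 3 without single arrays. Without centring 849 probes were above 0 and 409 under 0, and with quantile normalization 1298 and 491. The Hba-a2 median was 0.0042 without centring and 0.0057 with quantile normalization, the Hbb-b1 median 0.24 over arrays 1 and 2, and the Hbb-y summary 0.00097 as a mean over probes. Other gene medians moved by less than their SD over arrays, though that of Hbb-b1 was -0.0063 without array 2. Leaving out probes with mostly quotient ratios was chosen after seeing the data and gave 1613 probes, 1 of them a member. Of 1048 comparisons of a member probe with its value under an alternative, 102 changed sign, none at a probe past the threshold. The causes were not tested. Each ratio already pairs the KO and WT RNA of 1 array, and the test of the mean against 0 uses that pairing. With only 1 group of ratios, no further pairing was possible.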

Other observations

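The genes whose ratios followed the alpha globins most closely over the 6 arrays, among 7748 other named probes with values on all arrays and a spread at or above the median, were Anp32b with Pearson's r of 0.997, Mrpl15 with 0.989, Clec4a2 with 0.988, Slc47a1 with 0.981 and Rbm7 with 0.981. These genes were picked as the highest r among the 7748 probes, each over only 6 arrays. Of these probes, 50 reached 0.95, and the number that would do so by chance was not computed. Anp32b, at probe ZX-00135L06, was at -0.03, 0.46, -0.22, 0.11, -0.22 and -0.08, and by its name this probe came from the source plate that held most globin probes.

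Many pairs of probes of the same gene, or of the alpha genes, did not move alike from array to array. Over pairs of alpha probes (Hba-a1 and Hba-a2 pooled) with values on all arrays, Pearson's r over the 6 arrays had a median of 0.37. It ran from -0.96 to 0.996. Over pairs of Hbb-b1 probes the median was 0.44, and over pairs of an alpha and an Hbb-b1 probe it was 0.34. The median was -0.02 over 10 pairs of Hbb-bh1 probes and -0.35 over 3 pairs of Hbb-y probes. Pairs of unrelated probes were not compared. The SD of the probe means within a gene was 0.17 for Hbb-b1, 0.15 for Hba-a1, 0.16 for Hba-a2 and 0.11 for Hbb-bh1, ranks 124, 107, 109 and 40 from the smallest among 323 genes with at least 5 probes, whose median was 0.21. Hbb-y, with 3 probes from -0.39 to 0.74, was not ranked.

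Another 8 probes carried the symbols Hbb-b1 and Hbb-b2 together and were not counted as members. Their means ran from -0.08 to 0.28, and none passed the threshold.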
